A study of Rattus norvegicus with 158 samples.

Results

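Transcripts of 9 antioxidant genes regulated by the transcription factor NRF2 were followed through rat thigh muscle, a skeletal muscle, after oral dosing with 21 compounds. The genes were Nqo1, Gclc, Gclm, Gsr, Gstm1, Gstm2, Txn1, Txnrd1 and Hmox1, a list set by name with earlier results of these data known. Each gene was represented by the probe set annotated to it alone with the highest mean over all arrays, so that 9 of the 14217 genes tested are described. Those probe sets were 1387599_a_at for Nqo1, 1372523_at for Gclc, 1370030_at for Gclm, 1369061_at for Gsr, 1386985_at for Gstm1, 1370952_at for Gstm2, 1398839_at for Txn1, 1398791_at for Txnrd1 and 1370080_at for Hmox1. Gclc and Txnrd1 each had 1 further probe set of their own, described with them.

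The animals were male Sprague Dawley (CD-IGS) rats, bought at 6 to 8 weeks of age and dosed daily by oral gavage, and each of 158 arrays measured the thigh muscle of 1 animal sample after 3 d or 5 d. Of these, 122 arrays came from treated rats and 36 from rats given vehicle alone, in 47 groups of compound, vehicle and time. The vehicles were Water (18 control arrays), CMC (12) and a mixture labelled CMC/SDS/Povidone (6, at 5 d). For 18 of the compounds there were 6 arrays, for Glyburide and Paroxetine 5, and for Dicyclomine 4. In Water, Dexchlorpheniramine was given at 47 mg/kg, Dicyclomine at 645, Etidronate at 1005, Gabapentin at 2500, Losartan at 1000, Oxybutynin at 230, Paroxetine at 104, Phenytoin at 572 and Trimethadione at 535. In CMC, Atenolol was given at 1000 mg/kg, Azaribine at 750, Buspirone at 196, Chlorpropamide at 269, Famotidine at 1200, Flunarizine at 126, Glyburide at 1500, Guanethidine at 132, Levosulpiride at 1200, Pentoxifylline at 1170, Spironolactone at 300 and Sulpiride at 1000. Each compound was thus seen at a single dose, and doses differed between compounds, so responses are not ranked by potency.

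NRF2, encoded by Nfe2l2, is held in the cytoplasm and sent for degradation by its partner KEAP1, whose reactive cysteines are modified by electrophiles and oxidants. Freed NRF2 enters the nucleus, pairs with a small MAF protein and binds antioxidant response elements, which BACH1 can occupy as a repressor. Its targets make and recycle glutathione, reduce thioredoxin and quinones, conjugate electrophiles and break down haem, and in muscle the pathway is known chiefly from exercise and from oxidative injury.

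The promoters of 7 of the 9 genes were matched in the RefSeq sequence table (build GRCr8), in 8 windows of 300 bases around annotated starts, Txnrd1 having a pair of them. They are shown because a common form of the antioxidant response element can be read in them: the core TGACNNNGC was searched on both strands, and it was found in 2 of the 8 windows (25%) against 4038 of 33469 windows of all genes (12.1%). The windows with the core are those of Gclm and of the second start of Txnrd1, and those of Nqo1 and Gstm2 are shown beside them as genes that rose in these data. The capitals mark the core, which in both cases was on the opposite strand and so reads here as its reverse complement. A match is a description of these letters only, and a window without one says nothing of NRF2 binding elsewhere. The gene start below is the annotated start that each window was drawn around. Both Txnrd1 windows lie inside the gene, annotated at chr7:22717620-22802553, and not at its outermost start.
Gclm, chr2:213031885-213032184, plus strand, core starting at -172 from the gene start: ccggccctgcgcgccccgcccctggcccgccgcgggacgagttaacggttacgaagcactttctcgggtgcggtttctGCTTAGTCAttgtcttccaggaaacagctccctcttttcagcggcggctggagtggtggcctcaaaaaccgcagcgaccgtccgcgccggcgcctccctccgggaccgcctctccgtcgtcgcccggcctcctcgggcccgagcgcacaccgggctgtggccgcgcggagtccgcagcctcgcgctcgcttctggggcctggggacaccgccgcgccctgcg
Txnrd1, second start, chr7:22755855-22756154, minus strand, core starting at -78 from the gene start: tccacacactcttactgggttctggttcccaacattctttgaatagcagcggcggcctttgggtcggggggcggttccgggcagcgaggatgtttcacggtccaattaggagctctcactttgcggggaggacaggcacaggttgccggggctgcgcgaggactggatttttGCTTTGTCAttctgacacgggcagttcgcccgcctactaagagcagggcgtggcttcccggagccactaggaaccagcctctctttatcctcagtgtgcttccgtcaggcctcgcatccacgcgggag
Nqo1, chr19:52220218-52220517, minus strand, no core: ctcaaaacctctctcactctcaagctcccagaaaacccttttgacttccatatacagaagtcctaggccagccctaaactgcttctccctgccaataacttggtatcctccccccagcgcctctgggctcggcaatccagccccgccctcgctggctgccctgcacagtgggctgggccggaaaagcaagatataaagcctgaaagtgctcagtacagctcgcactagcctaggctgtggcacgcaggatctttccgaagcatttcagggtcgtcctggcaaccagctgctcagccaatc
Gstm2, chr2:198316868-198317167, minus strand, no core: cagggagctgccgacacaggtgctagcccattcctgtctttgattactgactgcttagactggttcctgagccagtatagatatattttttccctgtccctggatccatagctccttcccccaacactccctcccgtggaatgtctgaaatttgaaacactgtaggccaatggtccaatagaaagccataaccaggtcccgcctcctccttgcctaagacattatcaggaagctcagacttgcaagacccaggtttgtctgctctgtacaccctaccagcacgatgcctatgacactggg

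Levels are log2 values from the robust multi-array average (RMA), which compresses the changes of dim transcripts, and no detection calls came with them. Array medians lay between 5.69 and 5.89. Markers of skeletal muscle were high on the arrays, with Ckm, the muscle creatine kinase, between 14.23 and 14.66 on all 158. RNA had been extracted on 7 days, called batches A to G here, and no CMC control came from batches B, D, E, F or G. All 30 arrays of batch D were treated, and 8 of the 12 compounds given in CMC (Levosulpiride, Glyburide, Atenolol, Chlorpropamide, Guanethidine, Buspirone, Pentoxifylline and Flunarizine) had no CMC control in their batches. For these, compound and batch cannot be told apart by comparison with controls. The arrays were also hybridized in 2 periods, with all 12 CMC controls in the first and every array of Atenolol (6), Glyburide (5) and Levosulpiride (6) in the second, so that period and compound cannot be told apart for these 3 either. By the prefixes of their titles the arrays came from 26 studies, with each compound in a single study. Only Dexchlorpheniramine, Dicyclomine, Sulpiride and Trimethadione had a control of their vehicle from their own study. For the other compounds, among them Etidronate, Oxybutynin and Phenytoin, compound and study cannot be told apart. The difference between the 3′ and 5′ probe sets of Gapdh, a sign of RNA integrity, was 0.187 ± 0.05 (SD, n = 12) in CMC controls and exceeded 1 on 3 arrays, 1 each of Atenolol (1.26), Chlorpropamide (1.58) and Glyburide (3.02). In whole muscle, fewer cells of a type and less RNA per cell cannot be told apart, and the number of arrays limits the precision of every value.

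Expression with each compound was compared with respect to all controls of its own vehicle, and a gene was called up-regulated or down-regulated when its fold was at least 1.5 and its adjusted p at most 0.01 (limma with Benjamini-Hochberg adjustment over all genes of a compound). Of the 189 pairs of gene and compound, 15 passed, 9 higher and 6 lower, in 9 compounds. Dicyclomine, an antispasmodic, carried 5 of the 9 rises (Nqo1, Gsr, Gstm1, Gstm2 and Txn1), where 2.88% of all genes rose. Etidronate, a bisphosphonate, carried 2 (Nqo1 and Gstm2; 0.872% of all genes rose), and Gstm2 rose with Oxybutynin (0.0422%) and with the anticonvulsant Phenytoin (0.155%). The 6 falls were all in compounds with no control in their batches. Gsr fell with Atenolol (2.97% of all genes fell), Chlorpropamide (1.86%), Glyburide (2.86%), Guanethidine (2.52%) and Levosulpiride (3.54%), and Gstm2 fell with Levosulpiride. Gclc, Gclm, Txnrd1 and Hmox1 were called in 0 of 21 compounds. Their unadjusted p was under 0.05 in 4, 3, 5 and 5 compounds, in that order. Over all 14217 genes, the number under 0.05 ran from 936 with Famotidine to 5101 with Levosulpiride. These counts are therefore not read as changes of the 4 genes.

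**Figure D1:**
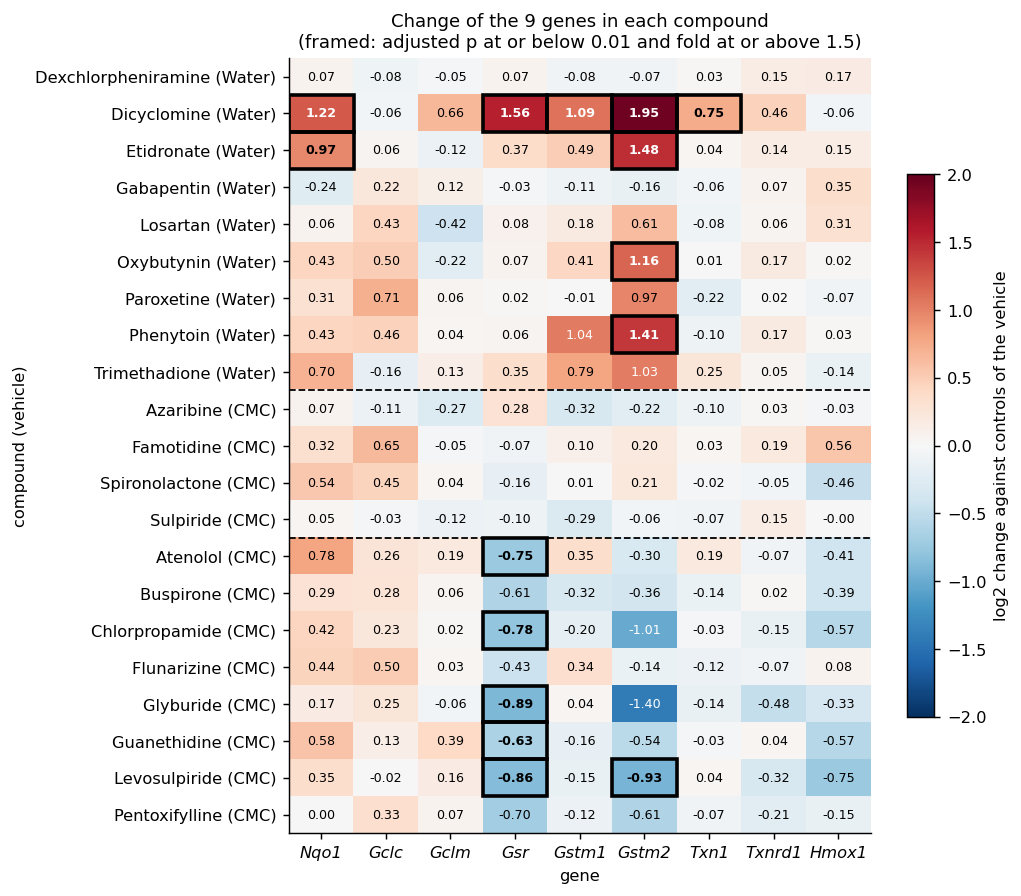
Log2 change of each gene (columns) in each compound (rows) with respect to the controls of its vehicle, as colour and number, with the 15 called changes framed. Dashed lines part the compounds given in Water, those given in CMC with a control in their batches and the 8 given in CMC without one. Gstm2 reached 1.95 with Dicyclomine, and the 5 framed falls of Gsr lie in the lowest block.

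Nqo1 encodes the quinone reductase that reduces quinones in a single step without a radical intermediate, and it is a much used readout of NRF2. In Water controls it lay at 8.00 ± 0.44 (SD, n = 18), from 7.26 through a median of 7.94 to 8.86. With Dicyclomine it read 9.27 and 8.58 at 3 d and 9.67 and 9.39 at 5 d. Of these 4 arrays, 3 lay above every Water control and the lowest, at 3 d, lay within their range. Nqo1 rose by 1.22 ± 0.23 (log2, SE; fold 2.33, limma adjusted p = 0.000629). With Etidronate it read 9.70, 9.38 and 8.58 at 3 d and 8.59, 8.51 and 9.06 at 5 d. The arrays of both times overlapped the controls, 3 of 6 lying above all of them, and the mean rose by 0.97 ± 0.21 (fold 1.95, limma adjusted p = 0.00341). The Etidronate call did not survive the removal of replicate 1 or of replicate 2 at 3 d, with changes of 0.81 and 0.88.

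Elsewhere Nqo1 came close to the thresholds without passing both. The change was 0.70 ± 0.20 with Trimethadione (limma adjusted p = 0.0469). Against the 6 Water controls of that compound's batches it was 0.37 ± 0.26, and against the 4 controls of its study 0.04 ± 0.24. Those 4 included the single control of batch E, at 8.77 for Nqo1, and batch was no covariate there. With Atenolol the Nqo1 change was 0.78 ± 0.24 (limma adjusted p = 0.0259). There the 2 highest arrays, 9.77 and 9.83 at 5 d, stood well above the other 4 at 7.96 to 8.28. With Guanethidine, an antihypertensive that empties noradrenergic terminals, the change of 0.58 ± 0.14 had a limma adjusted p of 0.00825 but a fold of 1.49. The estimate was above 0 in 20 of 21 compounds, Gabapentin (-0.24) being the exception, and an unadjusted p under 0.05 was seen in 11. Since compounds of a vehicle share their controls, these 21 estimates are not independent. For 8 of them no CMC control was extracted on the same days as the treated arrays. There the sign of the Nqo1 estimate cannot be told apart from an effect of batch. Against controls of shared batches Nqo1 was below 0 with Gabapentin (-0.39 ± 0.17), Sulpiride (-0.03 ± 0.11) and Dexchlorpheniramine (-0.01 ± 0.27). It was above 0 with the rest of the 13 compounds that had such controls. The lowest Nqo1 values with Chlorpropamide and with Glyburide, both 6.72, came from the arrays with Gapdh differences of 1.58 and 3.02. Without the former the Nqo1 change with Chlorpropamide was 0.74 ± 0.14 (limma adjusted p = 0.00308), past both thresholds, against 0.42 ± 0.23 with it. Chlorpropamide, like Atenolol, Guanethidine and Glyburide, had no control in its batches. Against other CMC compounds of those batches its Nqo1 change was -0.01 ± 0.25, on all 6 arrays. With Guanethidine and Atenolol it was 0.14 ± 0.25 and 0.47 ± 0.26 in that comparison. Flunarizine had 0.30 ± 0.17 there and Buspirone -0.02 ± 0.24. Levosulpiride had -0.11 ± 0.27, Glyburide -0.40 ± 0.28 and Pentoxifylline -0.45 ± 0.15.

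Gclc and Gclm encode the catalytic and the modifier subunit of glutamate-cysteine ligase, the rate-limiting enzyme of glutathione synthesis. Gclm lay at 7.87 ± 0.27 (SD, n = 18) in Water controls, with a highest value of 8.27. The Dicyclomine arrays read 8.41 and 7.63 at 3 d and 9.11 and 8.96 at 5 d, so that 3 of 4 arrays exceeded every control. The change of 0.66 ± 0.18 (fold 1.58) missed the threshold of significance (limma adjusted p = 0.0139). At 5 d alone, on 2 treated arrays, it was 1.15 ± 0.22 (limma adjusted p = 0.00413), and at 3 d alone 0.17 ± 0.20 (limma adjusted p = 0.682). Across the other compounds the Gclm change ran from -0.42 with Losartan to 0.39 with Guanethidine.

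Gclc, in Water controls, lay at 6.08 ± 0.40 (SD, n = 18) and with Dicyclomine it read 5.98 and 5.69 at 3 d and 5.88 and 6.56 at 5 d. All 4 values lay inside the range of the controls, 5.49 to 7.05, and the change was -0.06 ± 0.21 (limma adjusted p = 0.903). The widest estimate, 0.71 with Paroxetine, rested on a single array at 5 d that read 10.12, while the other 4 lay between 5.67 and 6.14. The further Gclc probe set, 1370688_at, was high on the same array, at 9.37, against 6.10 ± 0.24 (SD, n = 18) in Water controls. A Phenytoin array at 3 d and a Famotidine array at 5 d, both at 8.55, also stood apart, and the further probe set read 7.92 and 8.18 there. On the Phenytoin array the mean of 5 liver markers was 9.13 and on the Paroxetine array 6.17, where Water controls ran from 5.12 to 7.30. On the Famotidine array that mean was 5.85, where CMC controls ran from 5.17 to 8.76. Any part of liver transcripts in the Phenytoin value was not tested.

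Gsr encodes glutathione reductase, which returns oxidised glutathione to its reduced form with NADPH. In Water controls Gsr lay at 6.26 ± 0.30 (SD, n = 18), from 5.43 through 6.31 to 6.63. With Dicyclomine it read 7.61 and 7.09 at 3 d and 8.11 and 8.46 at 5 d. The groups did not overlap, all 4 treated arrays lying above the highest control. The rise was 1.56 ± 0.18 (fold 2.94, limma adjusted p = 9.78e-06). It was kept in each fit that left out 1 array, with a range of 1.37 to 1.77.

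The falls of Gsr had another setting. In CMC controls it lay at 6.31 ± 0.34 (SD, n = 12), from 5.88 through 6.29 to 6.80. With Atenolol it read 5.38, 5.37 and 6.04 at 3 d and 5.16, 5.53 and 6.02 at 5 d. Of these, 4 of 6 lay below every control, and the change was -0.75 ± 0.16 (fold 1.68, limma adjusted p = 0.00405). With Chlorpropamide, a sulfonylurea, Gsr ran from 5.24 to 5.82, entirely below the controls (-0.78 ± 0.14, limma adjusted p = 0.00146). With Glyburide, another sulfonylurea, its 5 arrays read 5.26 and 5.39 at 3 d and 5.53, 5.72 and 5.46 at 5 d (-0.89 ± 0.14, limma adjusted p = 0.000685), again with no overlap. With Levosulpiride it ran from 5.03 to 5.80 (-0.86 ± 0.15, limma adjusted p = 0.000718), also without overlap. With Guanethidine 5 of 6 arrays lay at 5.42 to 5.73, below the controls, and the array at 6.22, the only one of that compound from batch E, lay among the controls (-0.63 ± 0.15, fold 1.54, limma adjusted p = 0.00801). The calls with Guanethidine and Atenolol were lost in 12 and in 3 of the 18 fits that left out 1 array, whereas those with Chlorpropamide, Glyburide and Levosulpiride were kept in each. Markers of other cells were lower in the same compounds. Of 4 smooth muscle markers, 3 fell with Levosulpiride, 2 each with Guanethidine and Chlorpropamide and 1 each with Atenolol and Glyburide, Acta2 among them every time (-1.37 to -1.70). Hbb, of red blood cells, fell with Levosulpiride, Glyburide, Atenolol and Guanethidine (-0.96 to -1.85), and Des, a muscle filament gene, with Atenolol (-0.83). Their part in the Gsr values was not tested.

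Gsr was next compared between extraction batches. Among rats given CMC, Gsr was at 5.52 ± 0.24 (SD, n = 29) on the treated arrays of batch D, at 5.76 ± 0.40 (SD, n = 9) in batch E and at 5.81 ± 0.26 (SD, n = 10) in batch G, and at 6.58 ± 0.17 (SD, n = 5) in batch B. In batches A and C, treated arrays (6.31 ± 0.39, SD, n = 7 and 6.31 ± 0.42, SD, n = 11) lay as high as the CMC controls of the same batches (6.30 ± 0.33 and 6.33 ± 0.38, SD, n = 6 each). The single control of batch E, given Water, read 5.43. It was the lowest of all 36 controls. When batch was taken as a block over the whole set of arrays, the changes with Atenolol, Chlorpropamide, Glyburide, Guanethidine and Levosulpiride became 0.30, 0.20, 0.19, 0.36 and 0.18, with the opposite sign and none called (limma adjusted p from 0.578 to 0.911). Batch D held no control. Its offset in that fit rested on compounds with arrays in D and in other batches: Buspirone, Chlorpropamide, Guanethidine, Oxybutynin and Spironolactone. The Gapdh difference was 0.489 ± 0.557 (SD, n = 30) in batch D against 0.187 ± 0.05 (SD, n = 12) in CMC controls, and its part in the Gsr values was not tested. Without the 3 arrays above 1 the Gsr falls with Atenolol, Chlorpropamide and Glyburide stayed called, at -0.73, -0.81 and -0.92.

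**Figure D2:**
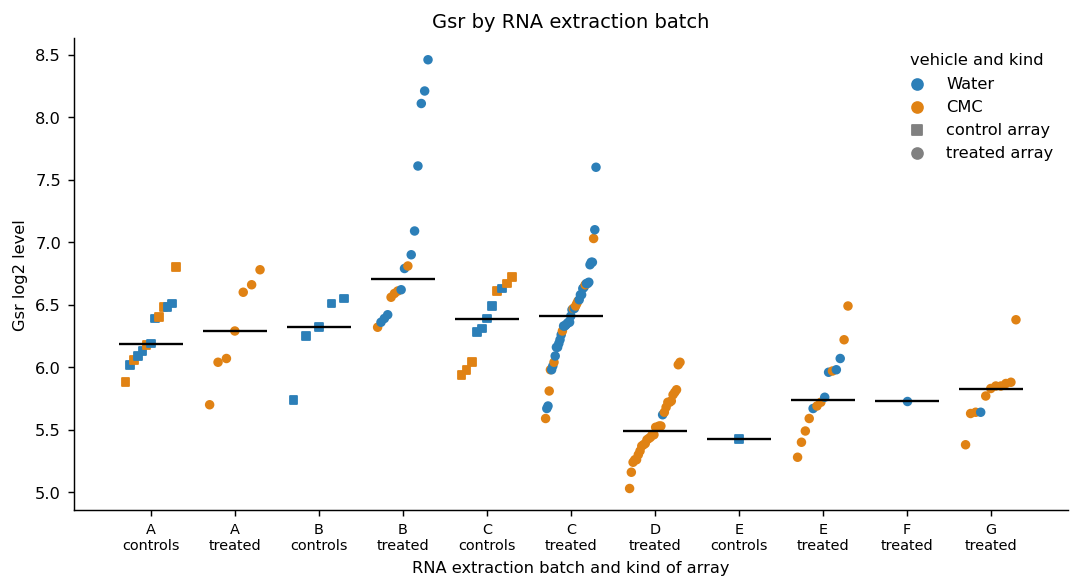
Gsr log2 level on each array by RNA extraction batch, with controls as squares, treated arrays as circles, vehicles by colour and lines at the medians; the 6 controls in the CMC/SDS/Povidone mixture are left out. Treated arrays of batch D run from 5.03 to 6.04, and the single control of batch E is at 5.43.

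Gstm1 and Gstm2 encode mu-class glutathione transferases, which join glutathione to electrophiles. Their sequences are alike, and cross-hybridization between family members was not tested. Gstm2 was the gene called most often in the upward direction. In Water controls it lay at 8.57 ± 0.37 (SD, n = 18), from 7.67 through 8.63 to 9.34. Under Dicyclomine it was at 10.48 and 9.80 at 3 d and 10.87 and 10.92 at 5 d. There was no overlap with the controls, and Gstm2 rose by 1.95 ± 0.18 (fold 3.86, limma adjusted p = 8.19e-07). With Etidronate the 3 arrays at 3 d read 10.72, 11.29 and 10.39, all above the controls, and those at 5 d read 9.04, 9.84 and 9.04. The levels at 3 d were thus the higher, and over both times Gstm2 rose by 1.48 ± 0.24 (fold 2.80, limma adjusted p = 0.00035). The difference between the changes at 5 d and at 3 d was -1.79 ± 0.33 and missed the threshold (limma adjusted p = 0.0161).

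With Phenytoin Gstm2 read 9.30, 10.64 and 10.16 at 3 d and 10.45, 10.41 and 8.95 at 5 d. Of these, 4 of 6 arrays exceeded all controls, and the lowest was the only Phenytoin array of batch E. The rise was 1.41 ± 0.21 (fold 2.66, limma adjusted p = 0.00122). With Oxybutynin, an antimuscarinic drug like Dicyclomine, it read 10.37, 9.83 and 8.33 at 3 d and 10.36, 10.09 and 9.42 at 5 d. The array at 8.33, the only one of batch D, lay below the control mean, and the other 5 lay above all controls. The rise was 1.16 ± 0.21 (fold 2.24, limma adjusted p = 0.00767), and the call was lost in 16 of the 24 fits that left out 1 array, while the change ran from 0.99 to 1.42 over all 24. Among the liver markers, the array means ran from 5.15 to 9.19 with Phenytoin, 5.67 to 7.40 with Oxybutynin and 5.25 to 7.80 with Etidronate, against 5.12 to 7.30 in Water controls, with 0 of 5 called in each. With Etidronate 1 of 4 endothelial markers (Kdr, -0.85) and 1 of 8 macrophage markers (C1qa, -1.18) fell, and the macrophage means ran from 6.15 to 6.73 against 6.34 to 7.65. The part of these cells in the Gstm2 and Nqo1 values was not tested. With Dicyclomine the liver means were 5.35 to 5.57.

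Short of the thresholds, the Gstm2 estimate was 1.03 ± 0.22 with Trimethadione (limma adjusted p = 0.0101), 0.97 ± 0.24 with Paroxetine (limma adjusted p = 0.0271) and 0.61 ± 0.15 with Losartan (limma adjusted p = 0.0218). With Paroxetine 4 arrays of batch C read 9.84 to 9.99, above every control, and the array of batch F read 7.80. Over the 9 compounds given in Water the median change was 1.03, with 7 estimates above 0. Gabapentin (-0.16 ± 0.18) and Dexchlorpheniramine (-0.07 ± 0.15) were the others. In CMC only 2 of 12 estimates were above 0 and the median was -0.33. Of these 12 compounds, 8 had no control in their batches. For the others, against CMC controls of the same batches, Gstm2 changed by 0.10 ± 0.19 with Famotidine, 0.36 ± 0.19 with Spironolactone and 0.07 ± 0.17 with Sulpiride. With Azaribine, on 1 treated array, it changed by -0.07. CMC treated arrays of batch D averaged 7.89 ± 1.00 (SD, n = 29), against 9.07 ± 0.48 (SD, n = 11) in batch C. With Levosulpiride Gstm2 read 7.58, 7.40 and 7.22 at 3 d and 8.97, 7.86 and 8.08 at 5 d, against 8.36 to 9.11 in CMC controls. It fell by 0.93 (SE 0.17, limma adjusted p = 0.000868), with 5 of 6 arrays below the controls. With Levosulpiride 3 of 4 smooth muscle, 2 of 5 red blood cell, 1 of 6 fat cell, 1 of 8 macrophage and 1 of 5 tendon markers also fell, and the smooth muscle means ran from 7.49 to 7.91 against 7.90 to 9.77 in CMC controls. Their part in Gstm2 was not tested. With the batch block the Gstm2 change was 0.57 ± 0.44 (limma adjusted p = 0.736). The lowest Gstm2 values of the Chlorpropamide and Glyburide arrays, 5.19 and 5.15, lay on those with Gapdh differences of 1.58 and 3.02. Without the latter array Gstm2 with Glyburide passed both thresholds (-0.90 ± 0.14, limma adjusted p = 0.000823), against -1.40 ± 0.34 (limma adjusted p = 0.0123) with it. Glyburide had no control in its batch, and against other CMC compounds of that batch the Gstm2 change was -0.79 ± 0.44, on all 5 arrays.

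**Figure D3:**
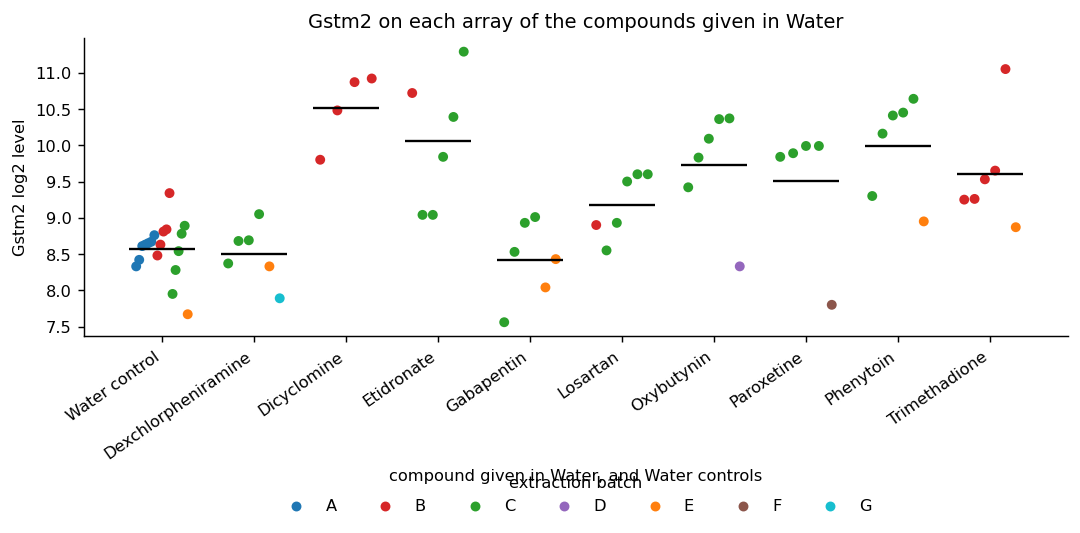
Gstm2 log2 level on each array of the 9 compounds given in Water and of the 18 Water controls, coloured by RNA extraction batch, with lines at the means. Controls reach 9.34, the 4 Dicyclomine arrays start at 9.80, and the lowest arrays with Oxybutynin (8.33), Paroxetine (7.80) and Phenytoin (8.95) each come from a batch other than that of the rest of their group.

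Gstm1 in Water controls lay at 6.86 ± 0.36 (SD, n = 18), from 6.24 to 7.77. With Dicyclomine it read 7.66 and 7.05 at 3 d and 8.75 and 8.33 at 5 d. Both arrays at 5 d exceeded the controls and both at 3 d lay among them, and Gstm1 rose by 1.09 ± 0.21 (fold 2.13, limma adjusted p = 0.00102). With Phenytoin the estimate of 1.04 ± 0.28 did not pass (limma adjusted p = 0.0412). It rested on 2 of 6 arrays, 9.21 at 3 d and 9.32 at 5 d, the others lying between 6.78 and 7.83. Those 2 arrays were also the ones with the highest liver marker means of that group, 9.13 and 9.19, and the part of liver transcripts was not tested. With Trimethadione the estimate was 0.79 ± 0.19 (limma adjusted p = 0.0185). Against the 6 Water controls of its batches it was 0.56 ± 0.26, and against the 4 controls of its own study 0.38 ± 0.33.

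Txn1 encodes thioredoxin, which reduces protein disulfides, and Txnrd1 encodes the cytosolic selenoenzyme that recharges it. Txn1 varied little in controls, at 11.51 ± 0.14 (SD, n = 18) in Water and 11.51 ± 0.075 (SD, n = 12) in CMC. The 4 Dicyclomine arrays read 11.80 and 11.48 at 3 d and 12.85 and 12.87 at 5 d. Both arrays at 5 d were more than 1 log2 unit above the highest control, 11.81, whereas those at 3 d lay within the range of the controls. The rise over both times was 0.75 ± 0.16 (fold 1.68, limma adjusted p = 0.00171), and without replicate 1 or replicate 2 at 5 d, on which Gstm1 also depended (0.87 and 1.02), it was 0.57 and no longer called. In the other 20 compounds the estimate lay between -0.22 with Paroxetine and 0.25 with Trimethadione.

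Txnrd1 lay at 8.89 ± 0.15 (SD, n = 18) in Water controls, with a highest value of 9.20. The Dicyclomine arrays gave 9.76 and 8.48 at 3 d and 9.29 and 9.89 at 5 d. The 3 higher arrays exceeded every control and the lowest lay below every control, and the change of 0.46 ± 0.15 did not pass (limma adjusted p = 0.0406). The further Txnrd1 probe set, 1386958_at, gave 0.45 ± 0.18 with Dicyclomine. In 5 compounds the further set fell where the set with the higher mean was not called (limma, all 31042 probe sets tested). The further set changed by -1.87 ± 0.17 with Glyburide, -1.72 ± 0.22 with Levosulpiride, -1.51 ± 0.26 with Atenolol, -1.28 ± 0.20 with Chlorpropamide and -1.11 ± 0.21 with Guanethidine (limma adjusted p from 2.37e-06 to 0.0014). The estimates of the set with the higher mean were -0.48, -0.32, -0.07, -0.15 and 0.04, in that order. On the CMC treated arrays of batch D the further set averaged 6.24 ± 0.56 (SD, n = 29), against 7.81 ± 0.35 (SD, n = 12) in CMC controls and 7.97 ± 0.22 (SD, n = 7) on treated arrays of batch A. The size of the Txnrd1 change in these compounds, and with Guanethidine its sign, thus differed between probe sets, and all 5 lacked a control in their batches. The further Gclc probe set likewise fell with Atenolol (-0.62 ± 0.09, limma adjusted p = 7.5e-05), where the other had 0.26 ± 0.16.

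Hmox1 encodes haem oxygenase 1, which opens the haem ring and is also under BACH1 and inflammatory control. It lay at 6.47 ± 0.31 (SD, n = 18) in Water controls and at 6.80 ± 0.58 (SD, n = 12) in CMC controls, where 1 array reached 8.43. With Dicyclomine it read 6.44 and 6.03 at 3 d and 6.22 and 6.96 at 5 d, inside the range of the controls (5.78 to 6.97), and the change was -0.06 ± 0.17 (limma adjusted p = 0.874). The estimates over the 21 compounds ran from -0.75 with Levosulpiride (limma adjusted p = 0.0261) to 0.56 with Famotidine.

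The times were compared for Dicyclomine on 2 arrays each at 3 d and 5 d. The product of time and treatment was past its threshold for Txn1 alone, whose change at 5 d exceeded that at 3 d by 1.23 ± 0.17 (limma adjusted p = 0.000249), where 1.36% of all genes passed. With batch as a covariate it was 1.20 ± 0.15 (limma adjusted p = 0.000417). For Gstm1, Gclm and Gsr the difference was 1.02 ± 0.38, 0.98 ± 0.31 and 0.83 ± 0.33, none passing (limma adjusted p from 0.0847 to 0.195). Counted at the full call rule, 6 of the 9 genes passed at 5 d alone (Gclm, Gsr, Gstm1, Gstm2, Nqo1 and Txn1; 4.99% of all genes rose there) and 0 at 3 d alone (0.0352%), where 4 had an unadjusted p under 0.05 by limma and the largest was Gstm2 at 1.72 ± 0.27 (limma adjusted p = 0.015). Over all 189 pairs of gene and compound, the product of time and treatment was called in 1, and had an unadjusted p under 0.05 in 26. The share of all genes under 0.05 in that test was not computed, so the 26 are not read as a dependence on time. Of 5 red blood cell markers, 2 fell with Dicyclomine (Hbb, -1.75, and Alas2, -1.43), and the marker means ran from 6.15 to 7.01 against 6.93 to 7.65 in controls. Of 4 endothelial markers 1 fell (Kdr, -1.06). None of 5 tendon markers was called, with means of 6.68 to 7.01 against 6.85 to 9.97. None of 10 skeletal muscle markers was called either. Their part in the changes of the antioxidant genes was not tested.

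**Figure D4:**
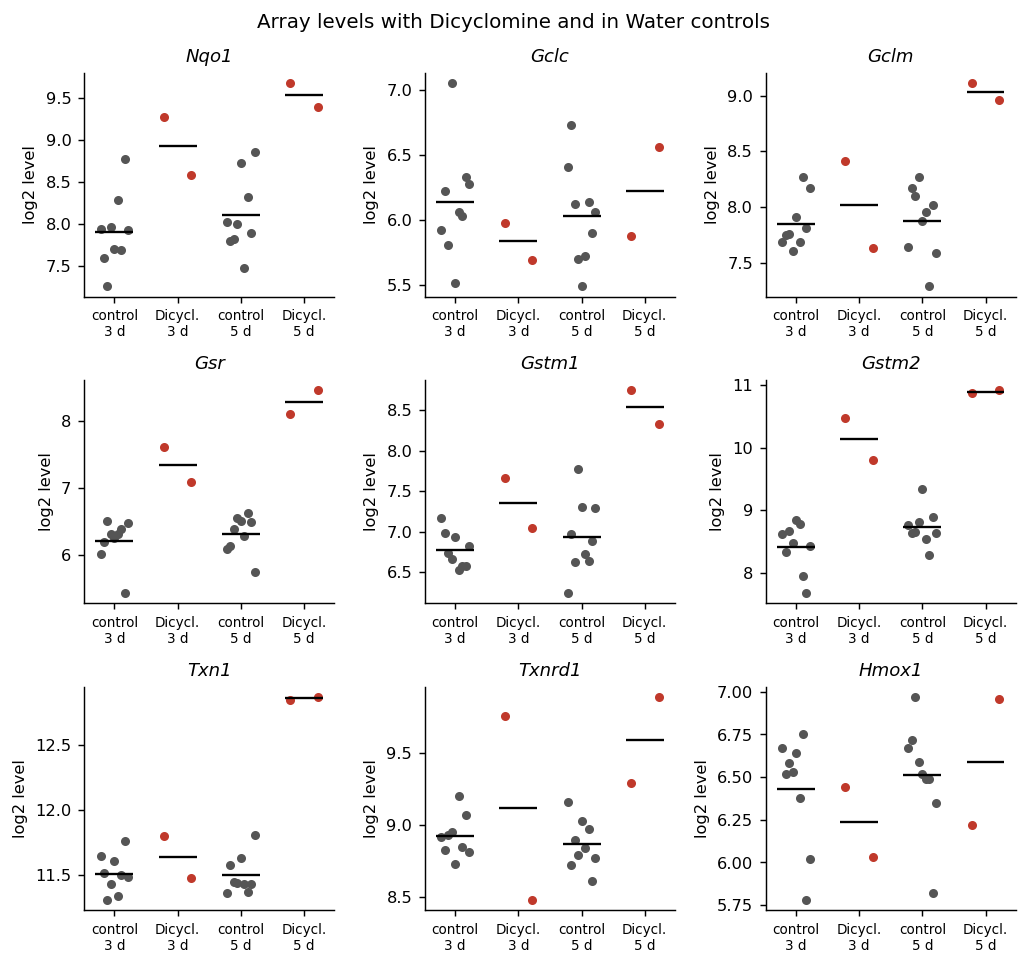
Log2 levels of the 9 genes on each Water control array (grey) and each Dicyclomine array (red) at 3 d and 5 d, with lines at the means; each panel has its own scale. Txn1 reads 12.85 and 12.87 at 5 d and 11.80 and 11.48 at 3 d, and Gclc and Hmox1 overlap the controls at both times.

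Single arrays of other groups were high for several of these genes at once. With Trimethadione, replicate 2 at 3 d read 9.54 for Nqo1, 9.33 for Gclm, 8.21 for Gsr, 8.71 for Gstm1, 11.05 for Gstm2 and 12.84 for Txn1. Each of these lay above every Water control, whereas the other 5 Trimethadione arrays read 11.38 to 11.69 for Txn1 and 5.67 to 6.62 for Gsr. With Etidronate, replicate 2 at 3 d read 7.60 for Gsr, 8.73 for Gclm and 12.22 for Txn1, while the other 5 arrays read 6.09 to 6.90 for Gsr and 11.24 to 11.62 for Txn1. Both arrays were picked out after their values were seen.

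Set only against controls extracted in the same batches, each rise stayed above 0 and none was called. With Dicyclomine, whose 4 arrays were all of batch B, the changes against the 5 Water controls of that batch were 1.04 ± 0.21 for Nqo1, 1.58 ± 0.26 for Gsr, 0.85 ± 0.19 for Gstm1, 1.75 ± 0.21 for Gstm2 and 0.73 ± 0.22 for Txn1 (limma adjusted p from 0.0445 to 0.141). In that fit 6 of the 9 genes had an unadjusted p under 0.05. Against the 4 controls of its own study Gsr differed by 1.98 ± 0.23 and Gstm2 by 2.15 ± 0.23 (limma adjusted p = 0.0638 for both), with Nqo1 at 0.70 ± 0.29 (limma adjusted p = 0.259). With Etidronate the within-batch changes were 1.04 ± 0.23 for Nqo1 (limma adjusted p = 0.0188) and 1.49 ± 0.30 for Gstm2 (limma adjusted p = 0.0124). The within-batch estimates of Gstm2 were 1.53 ± 0.22 with Oxybutynin and 1.63 ± 0.23 with Phenytoin (limma adjusted p = 0.0301 and 0.0269). When batch was instead the block, 8 of the 9 rises stayed called, Gstm1 with Dicyclomine being the exception (0.82 ± 0.29, limma adjusted p = 0.0548), and Gstm1 with Phenytoin joined them (1.19 ± 0.25, limma adjusted p = 0.00136).

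**Figure D5:**
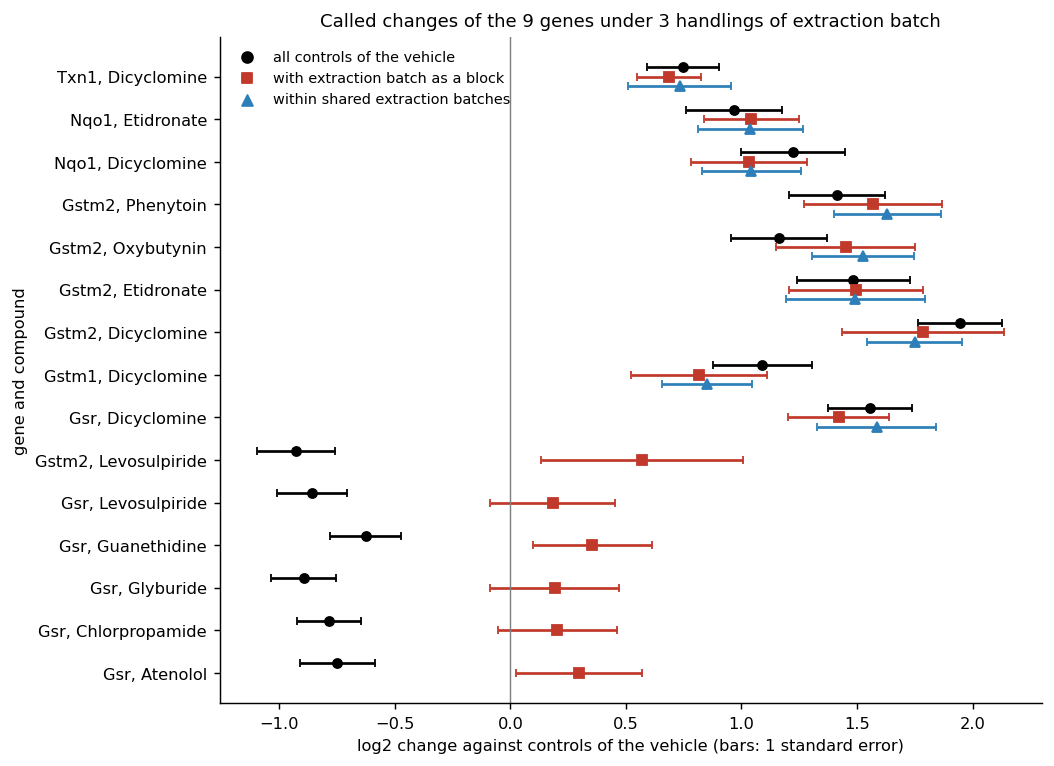
Log2 change and standard error of the 15 called pairs of gene and compound with all controls of the vehicle (black), with extraction batch as a block (red) and within shared extraction batches (blue). The 9 rises stay on the same side under each handling, and the 6 falls, for which no within-batch value exists, move to between 0.18 and 0.57 with the block.

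In 12 compounds 0 of the 9 genes was called by limma. The share of all genes called in either direction was 0.0422% with Azaribine, 0.436% with Buspirone, 0% with Dexchlorpheniramine, 0.00703% with Famotidine, 0.12% with Flunarizine, 0.429% with Gabapentin, 0.809% with Losartan, 0.682% with Paroxetine, 0.0141% with Pentoxifylline, 0% with Spironolactone, 0.183% with Sulpiride and 0.457% with Trimethadione. An unadjusted p under 0.05 was seen for 4 of the 9 genes with Losartan, for 3 with Flunarizine and Trimethadione each, for 0 with Dexchlorpheniramine and for 1 or 2 with the others. Of all 14217 genes, 1694 were under 0.05 with Losartan, 2031 with Flunarizine, 2548 with Trimethadione and 1063 with Dexchlorpheniramine. Spironolactone, a mineralocorticoid antagonist, had its largest estimate at Nqo1 (0.54 ± 0.15, limma adjusted p = 0.0768).

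The controls were also compared among themselves. Between 5 d and 3 d, between CMC and Water, and between the mixture and Water, 0 of the 9 was called by limma (0%, 0% and 0.0141% of all genes), with an unadjusted p under 0.05 for 1, 1 and 0 of them. The largest such differences were 0.35 ± 0.15 for Hmox1 between CMC and Water and 0.28 ± 0.16 for Gsr between the mixture and Water.

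A wider list of 94 genes of NRF2 control and antioxidant defence, 89 of them measured, was set beside the 9. With Dicyclomine 10 of the 89 rose (2.88% of all genes) and 1 fell (2.76%), and the median change was 0.11 against 0.02 over all genes. Among the regulators, Keap1 rose by 0.97 ± 0.13 (limma adjusted p = 2.45e-05) and Sqstm1, the autophagy receptor that competes for KEAP1, by 1.02 ± 0.13 (limma adjusted p = 1.81e-05), while Nfe2l2 itself had 0.51 ± 0.11 (limma adjusted p = 0.00242, under the fold threshold), Mafg 0.39 ± 0.14 and Bach1 0.01 ± 0.10. Srxn1, the sulfiredoxin that repairs peroxiredoxins, rose by 1.13 ± 0.26. The remaining rises were Chac1 (2.11 ± 0.38), which degrades glutathione, the transferases Gsta1 (1.31 ± 0.30) and Gstt2 (0.81 ± 0.13), the peroxidase Gpx3 (1.26 ± 0.26), catalase Cat (0.79 ± 0.18), Aox1 (1.00 ± 0.23) and Txnl1 (0.73 ± 0.10). Nqo2, the paralog of Nqo1 that does not use NADPH well, fell by 1.26 (SE 0.20). Of the 17 transferases measured 2 rose and their median change was 0.42, and of 7 genes of NADPH supply 0 was called, with a median of 0.01.

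Across compounds, Chac1 was the list's most frequent call, higher in 6 compounds, from 1.87 ± 0.39 with Paroxetine to 3.18 ± 0.34 with Etidronate. The extracellular superoxide dismutase Sod3 and the peroxiredoxin Prdx4 were each called lower in 4 compounds. For Sod3 these were Atenolol, Chlorpropamide, Guanethidine and Levosulpiride, all without a control in their batches, at -0.59 to -0.75. For Prdx4 they were Atenolol, Etidronate, Guanethidine and Levosulpiride, at -0.74 to -0.98. Gpx3 was lower with Buspirone, Guanethidine and Levosulpiride, and Aox1 with Guanethidine and Levosulpiride. Of the compounds with these falls of Prdx4, Gpx3 and Aox1, only Etidronate had a control in its batches. Of the 89 genes, 4 were higher with Guanethidine (Cat, Ephx1, Gsta1 and Nqo2; 2.17% of all genes) and 4 lower (2.52%). With Etidronate 3 were higher (0.872%) and 3 lower (1.6%), with Glyburide 1 was higher (1.24%) and 4 lower (2.86%), and with Levosulpiride 5 were lower (3.54%). Among regulators outside Dicyclomine, the small MAF gene Maff rose with Etidronate (1.33 ± 0.28) and Losartan (1.03 ± 0.18), and Nfe2l1, a relative of Nfe2l2, fell with Glyburide (-0.94 ± 0.21). Keap1, Nfe2l2, Mafg, Bach1 and the target Srxn1 were not called there, and the largest estimates among these 5 were 0.87 ± 0.23 for Srxn1 with Losartan (limma adjusted p = 0.0445) and -0.50 ± 0.08 for Mafg with Chlorpropamide, whose limma adjusted p of 0.000657 came with a fold under 1.5. For Guanethidine, Glyburide, Levosulpiride and Chlorpropamide, compound and batch cannot be told apart in this wider list either.

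As a description, the means of the 47 groups were compared between genes by Pearson's correlation. Groups share extraction batches, so no p is given. Among the 9 genes the highest values were 0.758 for Gsr with Txnrd1, 0.743 for Gsr with Gstm2, 0.729 for Nqo1 with Gstm1 and 0.709 for Gstm2 with Txnrd1. The highest value of Hmox1 with another of the genes was 0.219, and that of Gclc 0.245. Within groups, over 158 arrays, Nqo1 still had 0.527 with Txnrd1 and 0.524 with Gstm2. Outside the 9, the genes whose group means ran most like those of Nqo1 were Adhfe1 (0.881), Creg1 (0.843), Lsm10 (0.828), Ptp4a1 (0.827) and Syf2 (0.825). Most like the mean of the standardised levels of the 9 were Cct4 (0.897), Gaa (0.886), Psmd8 (0.885), Rab11a (0.879) and Ddt (0.879).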

How the data were processed

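Gene expression in rat thigh muscle was measured on 158 Affymetrix arrays. The values deposited by the authors are log2 levels of 31099 probe sets, made with RMA per the submitters' processing notes; its version is not given in the sources used here. Of these probe sets, 20826 named 1 gene and 57 were array controls. The probe set with the highest mean over all arrays was kept for each of 14217 genes. Samples were grouped by the labels for compound, vehicle and time, and replicate numbers follow the order of deposit only. The title of 1 CMC control says 5 d against 3 d elsewhere in its labels, which were followed. The study calls its samples biological triplicates, and p-values measure the spread between these samples, including any between batches. By their titles the treated samples of a compound came from a single study, so their spread includes none between studies.

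Each compound was compared with all controls of its vehicle by limma (3.58.1, R 4.3.3), with time as a covariate, Benjamini-Hochberg adjustment over all genes and calls at an adjusted p of 0.01 or less with a fold of 1.5 or more. The product of time and treatment was called at an adjusted p of 0.01. The fits were tested on simulated data. The genes, their wider pathway and marker lists and the tests were chosen with earlier results of these data known. Named were all 9 genes, the pathway genes called with Dicyclomine or in 3 or more compounds, 5 regulators and, for likeness, the 5 closest genes. Alternatives covered the threshold, low levels, all probe sets, array centring, extraction batch, hybridization period, time, RNA integrity and each array left out. Promoter windows came from RefSeq (GRCr8).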

Additional observations from a re-analysis of the deposited data

Results flagged for a closer look

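Single arrays were examined in 45 pairs of gene and control group. Treated groups, of 2 or 3 arrays each, were too small and were not examined. Of the 45 pairs, 3 had a lowest array set apart from the rest of its group by Dixon's criterion at 95%, a level at which chance alone flags about 1 in 20 groups. Gclm read 6.64 on CMC control 3 d replicate 7, where the nearest of the 7 arrays read 7.61. Gsr read 5.43 on Water control 3 d replicate 8, the only control of extraction batch E, where the nearest of the 9 arrays read 6.02. Hmox1 read 6.44 on CMC/SDS/Povidone control 5 d replicate 1, where the nearest of the 6 arrays read 6.69. The change of Txn1 with Dicyclomine differed between the times, by 1.23 in the test of the difference itself (limma adjusted p = 0.000249), on 2 treated arrays per time.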

How the results depend on the processing

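Against 15 calls in all, an adjusted p of 0.05 with no fold gave 29, 3 d alone 6, 5 d alone 6 and batch as a block 9. With that looser threshold the counts were 2 for Atenolol, 3 for Glyburide, Guanethidine and Trimethadione, 2 for Phenytoin and 1 for Losartan and Paroxetine. The share of all genes at that threshold is not given here, so these counts lack a background. At an unadjusted p under 0.05, 4753 of 14217 genes passed with Atenolol, 4153 with Glyburide and 4652 with Guanethidine. With Trimethadione 2548 passed, with Phenytoin 2344, with Losartan 1694 and with Paroxetine 2265. At 3 d alone 0 was called for Atenolol, Chlorpropamide, Dicyclomine, Glyburide, Guanethidine and Oxybutynin, and at 5 d alone 0 for Atenolol, Chlorpropamide, Etidronate, Glyburide, Guanethidine, Levosulpiride, Oxybutynin and Phenytoin. With the batch block 0 was called for Atenolol, Chlorpropamide, Glyburide, Guanethidine and Levosulpiride and 2 for Phenytoin; Gsr reversed to 0.30, 0.20, 0.19, 0.36 and 0.18 in those 5, and Gstm2 with Levosulpiride to 0.57. Within shared batches 0 was called for Dicyclomine, Etidronate, Oxybutynin and Phenytoin, and with controls of its own study 0 for Dicyclomine, on fewer arrays. Set against other CMC compounds of the same batches, an alternative chosen after seeing the data, 0 was called for Atenolol, Chlorpropamide, Glyburide, Guanethidine and Levosulpiride, and Gsr reversed to 0.082 with Atenolol and 0.171 with Guanethidine. With hybridization period as a covariate 0 was called for Chlorpropamide and Guanethidine and 1 for Trimethadione, and Gsr with Guanethidine reversed to 0.007. That fit could not be made for Atenolol, Glyburide and Levosulpiride, whose arrays share no period with CMC controls. Gsr was below the median level and so untested in genes above it, where 0 was called for Atenolol, Chlorpropamide and Guanethidine and 1 for Levosulpiride and Trimethadione. Without arrays of high Gapdh difference 2 were called for Chlorpropamide and for Glyburide, and with every probe set tested 2 for Glyburide and 0 for Oxybutynin. Leaving out 1 array gave ranges of 0 to 1 for Atenolol, Buspirone, Oxybutynin and Paroxetine, 1 to 2 for Chlorpropamide, Etidronate and Glyburide, 3 to 7 for Dicyclomine and 0 to 2 for Guanethidine and Trimethadione. The upper values came without Buspirone 3 d replicate 3, Paroxetine 3 d replicate 3 (batch F), Chlorpropamide 3 d replicate 2 and Water control 5 d replicate 4 (Trimethadione), and the lower without either 5 d array for Dicyclomine. Except where the arrays or genes tested were fewer, the cause was not tested. No paired analysis was possible because replicate numbers were given in order of deposit and pair no samples. Array centring moved no count of calls by more than 1.5 times.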
